A study of Danio rerio with 3 samples.

Results

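Vesicle traffic genes were followed across the 3 arrays of a zebrafish knockdown series. They were taken by name: every probe set annotated to a single gene whose symbol starts with rab, arf, arl, sec, vps, snx or stx and a digit, with cop and 1 of the subunit letters a, b, e, g or z, or with vamp or tmed. This gave 164 probe sets for 134 genes, of 8793 genes named on the array. Where a gene had several probe sets, the strongest by mean signal gave its value, and counts and statements on genes refer to that probe set unless others are named. The names also take in 6 genes that are called after a traffic protein but belong to no coat, Rab or sorting complex.

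RNA came from whole embryos at 24 hours post-fertilization. The 3 groups were uninjected embryos, embryos that received a control siRNA as zygotes, and embryos that received an siRNA against zfPGRP-SC, a peptidoglycan recognition protein that binds bacterial cell wall. Both siRNAs were given at 300 ng/µl and 1 nL per embryo, all groups came from mixed parents, and no strain or mutant allele is named in the labels. Each group was 1 pool of 400 embryos on 1 array, so no value here has a replicate error, no test across samples was possible and no p-value is given.

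Proteins made at the endoplasmic reticulum (ER) leave it in vesicles built by the COPII coat, and COPI-coated vesicles carry proteins and receptors back from the Golgi. Further on, Rab GTPases mark each membrane, SNARE proteins fuse it, and sorting nexins, retromer and the VPS complexes sort cargo in endosomes towards recycling or the lysosome. In zebrafish the embryo is known to need COPI for a mature notochord, and COPII for secretion of cartilage collagen.

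Signals were set to a common scale, and values under a floor of 101.7, the 40th percentile of all signals, were raised to it. A ratio with 1 array under the floor is a bound, and 14 of the 134 genes were under it in all 3 arrays and gave no ratio. These were rab1bb, rab4b, rab15, rab32b, rab35a, sec22ba, snx8a, snx18a, snx19b, stx2a, stx8, stx11a, vps39 and arl3l1. Shares and medians of all genes are over those with a ratio, bounds included. These were 6514 over control siRNA, 6565 over uninjected embryos and 6462 between the control siRNA and uninjected arrays. Of these 6462 genes 95% differed by less than 1.70-fold, which holds pool, array and injection effects together. The platform annotation names no peptidoglycan recognition gene, and the degree of knockdown was therefore not analysed here. Marker lists of cell types were chosen with earlier results of these data known. Of these, 5 of 5 measured muscle, 5 of 5 neuronal and 5 of 5 primitive erythrocyte genes were lower with PGRP-SC siRNA than with control siRNA. Their median log2 ratios were -0.97, -1.04 and -0.69, and 50.3% of all genes were below 0. Over uninjected embryos these medians were -1.40, -1.23 and -1.17 with PGRP-SC siRNA, and -0.43, -0.20 and -0.67 with control siRNA. The 2 hatching gland genes agr2 and cd63 had -0.26 and -0.0085 over control siRNA and -1.97 and -0.03 over uninjected embryos. With control siRNA, agr2 was at -1.71 over uninjected embryos. Over control siRNA 4 epidermal genes had log2 ratios between -0.06 and 0.38. The ratio of 5' to 3' signal of the acta1 control probe sets was 0.369, 0.205 and 0.127 without injection, after control siRNA and after PGRP-SC siRNA, that of GAPDH was 0.350, 0.347 and 0.498, and their part in the results below was not tested.

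As a group, the vesicle traffic genes sat where the rest of the array sat. Against control siRNA, 117 had a ratio, with a median log2 ratio of -0.0047 beside -0.0026 over all genes. Only 3 were at least 2-fold higher (2.56%), beside 2.87% of all genes, and 1 was at least 2-fold lower (0.855%), beside 2.93%. At 1.5-fold, 9 were higher (7.69%) and 14 lower (12%), beside 10.7% and 11.5% of all genes. Against uninjected embryos, a comparison that shares the PGRP-SC siRNA array, 118 had a ratio and the median was -0.09 beside 0.02. There 6 were at least 2-fold higher (5.08%) and 5 lower (4.24%), beside 5.76% and 6.09% of all genes. At 1.5-fold the counts were 13 (11%) and 21 (17.8%), beside 16.2% and 15.6%. The shares of genes past either fold thus lay near or below those of the array, apart from the 1.5-fold lower genes, which were slightly above.

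**Figure D1:**
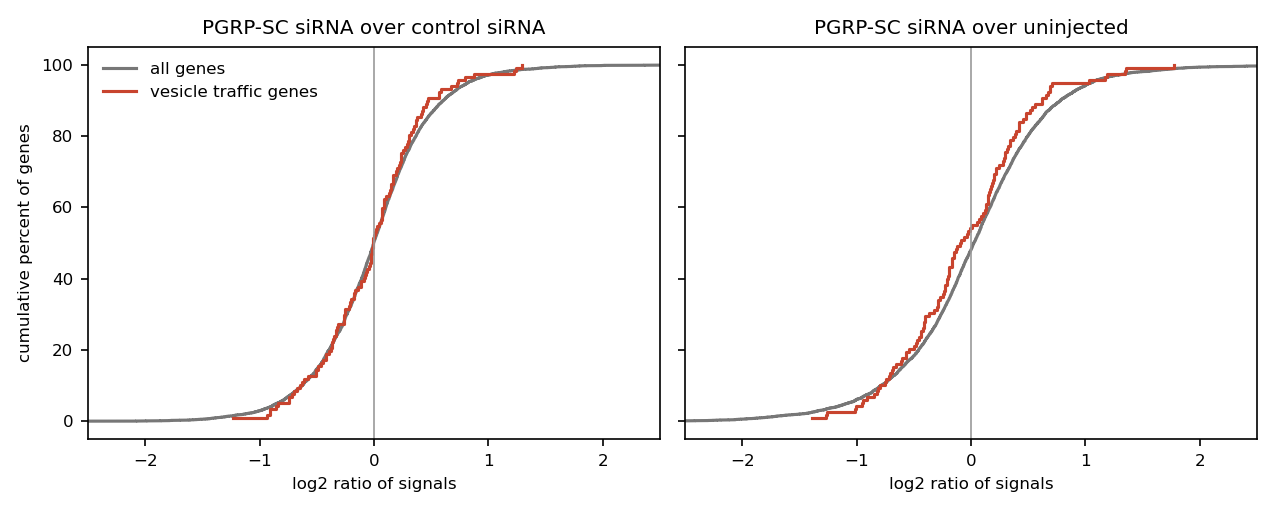
Cumulative percent of genes by log2 ratio of signals for vesicle traffic genes (red) and all genes with a ratio (grey), with PGRP-SC siRNA over control siRNA on the left and over uninjected embryos on the right. The curves nearly coincide on the left, with medians of -0.0047 and -0.0026, and on the right the red curve lies slightly to the left of the grey one around 0, with medians of -0.09 and 0.02.

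All 14 coat genes taken by name were above the floor in every array, and the subunits of a single coat went different ways. The rule on names leaves out the COPI delta subunit genes arcn1a and arcn1b and the COPII GTPase gene sar1b. These had log2 ratios of 0.19, 0.08 and -0.05 over control siRNA and of 0.10, -0.25 and -0.08 over uninjected embryos. In COPI, the coat of retrograde transport, copa, encoding the alpha subunit, had a signal of 2589 in uninjected embryos, of 3131 after control siRNA and of 3968 after PGRP-SC siRNA. The beta subunit gene copb1 had 1991, 2286 and 2731 in that order, in which all signals below are given, and the gamma subunit gene copg2 had 1750, 1974 and 2259. These 3 were lowest in uninjected embryos and highest with PGRP-SC siRNA, at 1.27-fold, 1.195-fold and 1.14-fold over control siRNA and 1.53-fold, 1.37-fold and 1.29-fold over uninjected embryos.

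The genes of the small COPI subunits had signals in the reverse order. Subunit size was not one of the planned lists. The epsilon subunit gene cope had signals of 4836, 4377 and 4125, and the zeta subunit gene copz1 had 3196, 2486 and 2480. The other zeta gene, copz2, had 515.5, 500.8 and 314.2, which is 1.59-fold lower with PGRP-SC siRNA than with control siRNA. All 3 were lowest in the PGRP-SC siRNA array, though copz1 differed from control siRNA by a log2 ratio of only -0.0037. That copz1 ratio turned above 0 with median scaling, quantile normalization and cyclic loess, so its order depended on the scaling. By the strongest probe sets, every COPI difference was below the 1.70-fold that enclosed 95% of genes between the control arrays.

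For copb2, encoding beta prime, the probe sets did not tell the same story. Its strongest probe set had 1092, 1358 and 1291, and a second had 801.4, 784.3 and 920.5, both close to level. Another probe set annotated to copb2 had 82.45, which is under the floor, 531.8 and 1001, a log2 ratio of at least 3.30 over uninjected embryos and of 0.91 over control siRNA. Why the probe sets differ was not tested. The other 2 coat genes with several probe sets were copa and copg2. The second copa probe set had 516.8, 458.4 and 662.0. Other copg2 probe sets had log2 ratios of -0.23 and 0.42 over control siRNA and of -0.40 and 0.03 over uninjected embryos. None of these further copa and copg2 probe sets was lowest in uninjected embryos.

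In COPII, the outward coat, the widest difference over uninjected embryos was in sec23b and that over control siRNA in sec24a. The gene sec23b is one of the genes for the inner coat subunit that activates GTP hydrolysis by Sar1, and it had signals of 874.9, 1198 and 1993, which is 1.66-fold above control siRNA and 2.28-fold above uninjected embryos. Its paralogue sec23a had 1728, 1853 and 2267, 1.22-fold and 1.31-fold higher. Both SEC23 genes were thus highest in the PGRP-SC siRNA array, and sec23b was the only coat gene past 2-fold in any of the 3 comparisons by its strongest probe set.

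The SEC24 genes, whose products bind cargo beside SEC23, did not share this order. For sec24a the signals were 812.0, 1090 and 601.1, 1.81-fold lower with PGRP-SC siRNA than with control siRNA and 1.35-fold lower than in uninjected embryos. Signals of sec24b were 866.8, 750.7 and 751.9, and those of sec24c were 966.8, 803.8 and 902.5. The outer cage genes were lowest with PGRP-SC siRNA, sec13 at 1796, 1555 and 1355, and sec31a, a dim probe set near the floor, at 185.0, 171.6 and 133.2.

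**Figure D2:**
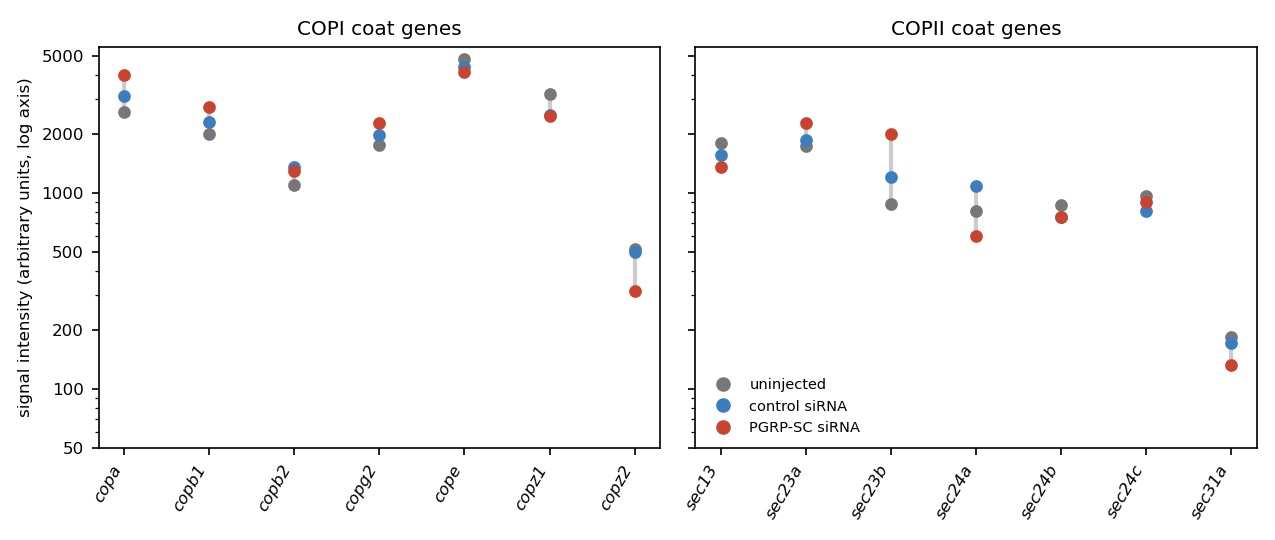
Signal intensity (log axis) of the 7 COPI and 7 COPII coat genes in uninjected (grey), control siRNA (blue) and PGRP-SC siRNA (red) embryos, 1 point per array. Points for copz1 and sec24b in the siRNA arrays overlap; sec23b runs from 874.9 to 1993 and is widest, while copz2 and sec24a are lowest in red.

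Coat genes and endosomal genes had much the same medians. Over control siRNA the median log2 ratio was -0.0007 for the 14 coat genes and 0.04 for the 56 of 65 endosomal genes with a ratio, a difference of -0.04. Over uninjected embryos the medians were -0.15 and -0.04 with 57 endosomal genes, a difference of -0.12, and between the controls they were 0.03 and -0.07. These differences were small beside the spread within each list: over control siRNA the distance from lower to upper quartile was 0.41 in the coat list and 0.62 in the endosomal list. The sign over control siRNA turned, to 0.05, with the mean over probe sets, and to 0.21, 0.18 and 0.48 under a 60th percentile floor, with every probe set counted and with the second probe set. The sign over uninjected embryos turned, to 0.058, when every probe set was counted, to 0.36 with the second probe set and, to 0.012, when p24 receptors, ER to Golgi SNAREs, Arf and ER exit site genes joined the coat list. Of the endosomal genes 29 were above 0 and 27 below it over control siRNA, and of the coat genes 7 and 7.

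**Figure D3:**
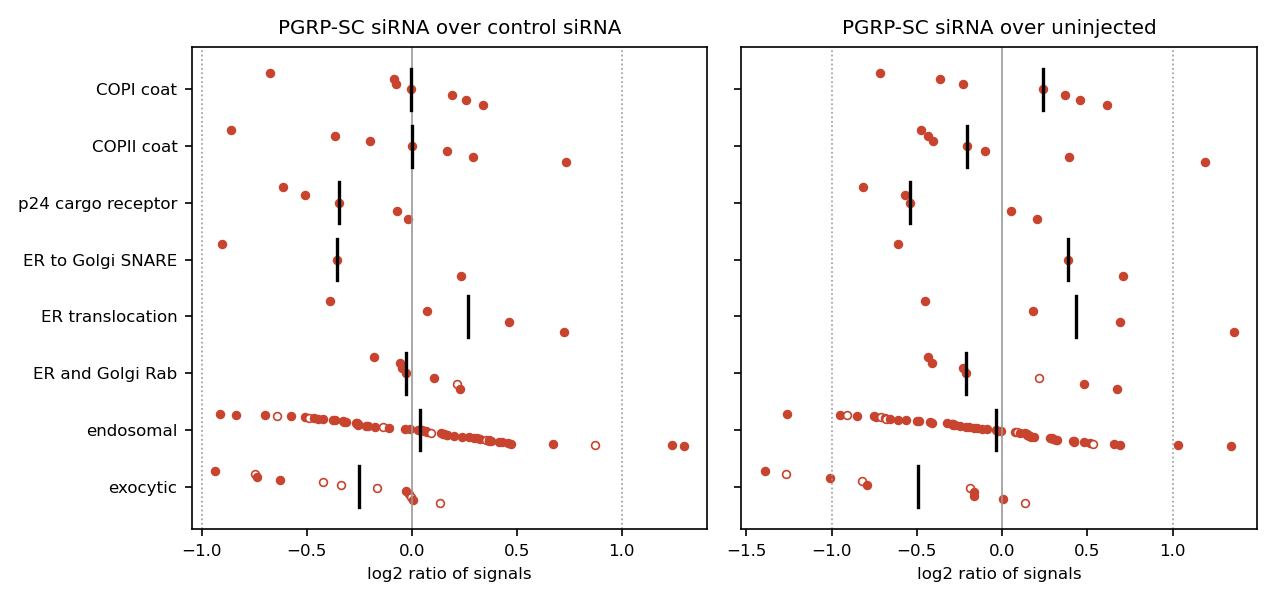
Log2 ratio of signals by role for COPI, COPII, p24, ER to Golgi SNARE, ER translocation, ER and Golgi Rab, endosomal and exocytic genes. PGRP-SC siRNA is compared with control siRNA on the left and with uninjected embryos on the right. Open circles are bounds with 1 array under the floor, black bars are medians and dotted lines mark 2-fold. Genes of other roles are not drawn, among them arl6ip5a, rab32a, arl2bp, arf5 and sec23ip. Coat medians lie near 0 on the left, p24 and exocytic medians lie below 0 in both panels at between -0.54 and -0.25, and ER translocation lies above 0 at 0.27 and 0.43.

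Among the other genes of the early pathway, 5 of 5 p24 cargo receptor genes had log2 ratios below 0 over control siRNA and 3 of 5 over uninjected embryos, beside 50.3% and 48.2% of all genes. Over control siRNA tmed2 and tmed10 were at only -0.07 and -0.02, and tmed10 turned to 0.05 with median scaling. The products of these genes shuttle between ER and Golgi with selected cargo. The signals of tmed3 were 5451, 5732 and 3749, 1.53-fold lower with PGRP-SC siRNA than with control siRNA, and its other 2 probe sets had log2 ratios of -0.89 and -0.78. For tmed9 they were 3112, 2979 and 2094, and for tmed4 803.8, 580.3 and 456.3. The remaining receptors were near level, tmed2 at 2789, 3032 and 2891 and tmed10 at 3265, 3807 and 3760. The median of the 5 over control siRNA was -0.35, beside -0.0026 for all genes.

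Of 4 genes for entry into the ER, 3 had log2 ratios above 0 over control siRNA, beside 49.7% of all genes. The Sec61 channel carries new proteins through the membrane, and sec61a1b, one of its alpha subunit genes, had signals of 997.7, 1545 and 2556, which is 1.66-fold and 2.56-fold above control siRNA and uninjected embryos. The gamma subunit gene sec61g had 6744, 7879 and 10873, 1.38-fold and 1.61-fold higher. The other alpha gene, sec61a1a, was close to level at 6596, 7100 and 7473, and sec11a, a subunit of the signal peptidase that trims new proteins, was lower at 2842, 2722 and 2078. The channel genes were thus in the same order across the arrays, with PGRP-SC siRNA highest, and the peptidase gene was in the reverse order.

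The ER to Golgi SNARE genes and the Golgi GTPases were mixed. A SNARE of the Golgi entry face is encoded by stx5al, which had 266.1, 556.3 and 434.3, 2.09-fold higher with control siRNA than in uninjected embryos and the only vesicle traffic gene past 2-fold between the controls by its strongest probe set. Its second probe set was level, at 115.6, 122.1 and 137.5. The SNARE gene sec22bb had 926.5, 1030 and 1210, while sec22a had 190.4, 233.6 and 124.8. For the Arf gene arf5 the signals were 6901, 7422 and 8753, and for rab2a, of ER to Golgi transport, 6690, 5133 and 5036. The Rab1 genes rab1ab and rab1ba, which act at the same step, had log2 ratios of -0.04 and -0.18 over control siRNA. The gene sec23ip, of ER exit sites, had 171.6, 260.2 and 264.1, so its difference lay between the uninjected and both injected arrays.

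Within the endosomal list, sorting nexin genes went both ways. Those with a BAR domain encode proteins that bend membrane, and 10 of the vesicle traffic genes are of this kind. Of these, snx8a and snx18a were under the floor in every array, and the other 8 had 5 log2 ratios below 0 and 3 above it over control siRNA, with a median of -0.30. The lowest were the 4 whose products work with retromer in recycling tubules. Signals of snx5 were 725.4, 570.3 and 302.9, 1.88-fold lower than with control siRNA and 2.39-fold lower than in uninjected embryos. Signals of snx1a were 1869, 1775 and 1324, those of snx2 340.4, 321.4 and 215.8, and those of snx6 1033, 936.2 and 678.1. These 4 genes were grouped after their values were seen, by their part in the retromer route. By their strongest probe sets, all 4 were lowest in the PGRP-SC siRNA array and highest in the uninjected array. Their median log2 ratios were -0.52 over control siRNA and -0.63 over uninjected embryos. A second, dim snx2 probe set had 129.7, 139.8 and 106.1, so it was lowest with PGRP-SC siRNA but highest with control siRNA.

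Of the other 4 BAR domain sorting nexin genes with a ratio, 3 had log2 ratios above 0 in both PGRP-SC siRNA comparisons. Signals of snx7 were 614.9, 617.0 and 822.9, those of snx9b, of endocytosis, 604.3, 606.5 and 751.8, and those of the dim snx30 166.8, 167.0 and 187.7. By the strongest probe sets, the control arrays were nearly equal in these 3 and the PGRP-SC siRNA array was highest. The log2 ratios over control siRNA were 0.42, 0.31 and 0.17. A second snx7 probe set had 433.5, 634.9 and 719.0, so in it the control arrays were not nearly equal. For snx4 the signals were 581.5, 641.0 and 567.1, a log2 ratio of -0.18.

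The small sorting nexins snx3 and snx12, of the retromer route without BAR domains, were in the order of the 4 retromer genes by their strongest probe sets. For snx3 the signals were 3755, 2843 and 2086, and for snx12 they were 1646, 1518 and 851.2. A second snx12 probe set had 1402, 1188 and 762.4, but the remaining probe set had 695.9, 592.9 and 755.9 and was highest with PGRP-SC siRNA. The genes snx3 and snx12 were also grouped after their values were seen. Not every sorting nexin gene outside the BAR domain group was in this order. Signals of snx27b were 281.5, 194.2 and 229.4, lowest with control siRNA. The core retromer genes, which select cargo, went both ways, with 3 of 5 below 0 over control siRNA and 3 of 5 over uninjected embryos. Their signals were 917.6, 982.4 and 1016 for vps26a, 1783, 1415 and 1589 for vps35, and 1582, 1942 and 1556 for vps29. The gene vps26b had 248.4, 384.5 and 332.6, and the dim vps26bl had 166.4, 111.9 and 71.46, at least 1.64-fold lower with PGRP-SC siRNA than in uninjected embryos. The median of the 5 core genes was -0.14 over control siRNA and -0.02 over uninjected embryos.

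**Figure D4:**
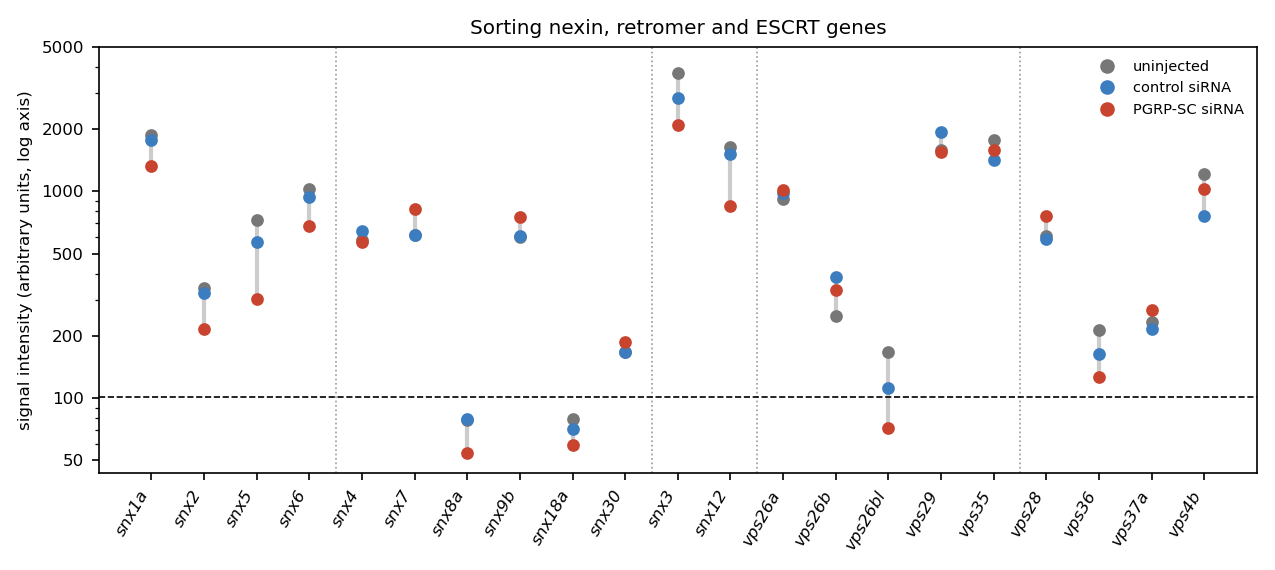
Signal intensity (log axis) in uninjected (grey), control siRNA (blue) and PGRP-SC siRNA (red) embryos for, from left to right and divided by dotted lines, the 4 BAR domain sorting nexins of the retromer route, the 6 other BAR domain sorting nexins, snx3 and snx12, core retromer and ESCRT genes; the dashed line is the floor of 101.7. Red lies lowest for snx1a, snx2, snx5, snx6, snx3 and snx12 and highest for snx7, snx9b and snx30, snx8a and snx18a lie under the floor, and the colours have no common order among the retromer and ESCRT genes.

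The endosomal genes past 2-fold on the higher side were snx10a and vps9d1. The sorting nexin gene snx10a had signals of 224.3, 186.8 and 458.8, 2.46-fold above control siRNA and 2.05-fold above uninjected embryos. The gene vps9d1, whose product carries the domain of Rab5 activators, had 357.8, 384.5 and 908.2, 2.36-fold and 2.54-fold higher. In both, the control arrays lay close together and the PGRP-SC siRNA array stood apart. Only 1 of 4 vps9d1 probe sets was above the floor, so this value has no second probe set beside it. Neither gene was past 2-fold over control siRNA under every alternative processing. The lowest log2 ratios there were 0.77 for snx10a and 0.31 for vps9d1.

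Genes of complexes that carry cargo on to the lysosome had no common order across the arrays. ESCRT genes sort ubiquitinated receptors into multivesicular bodies, and vps4b, its ATPase, had 1221, 761.5 and 1027, while vps36 had 214.1, 163.6 and 127.0 and vps28 had 610.4, 591.1 and 763.8. Of the HOPS and CORVET tethering genes, vps41 had 225.3, 132.2 and 134.9, vps8 had 163.3, 158.8 and 87.74, and vps33a had 167.8, 76.17 and 186.4. Those of vps33a and vps8 include a signal under the floor, so the log2 ratios over control siRNA, 0.87 and -0.64, are bounds. Nearer level were vps16 at 0.15 and vps18 at 0.07. Of 5 HOPS and CORVET genes with a ratio, 4 were above 0 over control siRNA, with a median of 0.07. Over uninjected embryos 2 were above 0 and 3 below it. The Golgi tether gene vps51 had 164.3, 126.6 and 201.8, and the sorting nexin genes snx16 and snx14 had 769.6, 998.3 and 614.6 and 414.6, 362.7 and 503.4.

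Rab genes of early and recycling endosomes went both ways. In the Rab5 group, which governs the early endosome, rab21 had 635.5, 820.8 and 1028, 1.62-fold above uninjected embryos. Others of the group were rab5aa at 795.6, 922.4 and 1062, rab5c at 1362, 1155 and 920.5, and rab5b at 238.1, 331.6 and 256.2. A second rab5aa probe set had 680.5, 772.5 and 667.6. Recycling endosome genes included rab11a at 730.2, 659.5 and 548.6 and rab11ba at 3862, 3687 and 3167, both lowest with PGRP-SC siRNA. The dim rab11bb had 191.0, 142.6 and 85.82, at least 1.88-fold lower with PGRP-SC siRNA than in uninjected embryos, and its other probe set, near the floor, had 101.0, 132.0 and 107.4. The dim rab4a had 112.8, 137.4 and 177.5, 1.57-fold above uninjected embryos, and rab22a, of the Rab5 group, had 90.09, 113.3 and 147.2, so both were highest with PGRP-SC siRNA. The late endosome gene rab7a had 1274, 949.1 and 791.2, 1.61-fold lower with PGRP-SC siRNA than in uninjected embryos.

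Genes of exocytosis, the last step to the cell surface, had the lowest median of the roles with at least 10 genes. Smaller roles were lower over control siRNA, p24 cargo receptors at -0.35 with 5 ratios and ER to Golgi SNAREs at -0.36 with 3. That SNARE median is the value of stx5al, whose second probe set was at 0.17. Over uninjected embryos the SNARE median was above 0, at 0.38. Of 14 exocytic genes, 12 had a ratio over control siRNA, 10 of them below 0 (83.3%, beside 50.3% of all genes), with a median log2 ratio of -0.25. Of the 12 ratios 6 were bounds, and vamp5, rab40c and stx4 were within 0.03 of 0. With median scaling rab40c and stx4 turned above 0. The sign of rab40c also turned with quantile normalization, cyclic loess and the mean over probe sets, and its second probe set was at 0.57. Roles were assigned by gene name, and whether rab12 and rab40c act in exocytosis was not tested. Over uninjected embryos 10 genes had a ratio, with a median of -0.49. The gene rab10, of transport to the plasma membrane, had 1726, 1904 and 996.2, 1.91-fold lower with PGRP-SC siRNA than with control siRNA. The gene rab3ip, whose product activates Rab8, had 1072, 681.9 and 408.8, which is 2.62-fold below uninjected embryos. The epithelial rab13 had 445.9, 342.7 and 221.7, 2.01-fold below them, though its log2 ratio of -1.01 became as small as -0.73 under alternative processing. These 3 were lowest in the PGRP-SC siRNA array.

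Of the exocytic genes that act at synapses, rab3c, a Rab of synaptic vesicles, and vamp1a were singled out after their values were seen. For rab3c the signals were 245.2, 136.1 and 91.44, at least 2.41-fold lower with PGRP-SC siRNA than in uninjected embryos, and for the SNARE gene vamp1a they were 179.6, 170.3 and 61.98. Both ended under the floor, so their log2 ratios over control siRNA, -0.42 and -0.74, are bounds. The genes rab3gap1 and rab3gap2, whose products act on Rab3, had 0.13, a bound, and 0.0054. The 5 neuronal marker genes, of which snap25a is a synaptic SNARE itself, had summed signals of 5515, 4373 and 2541, and a median log2 ratio of -1.04 over control siRNA. All 5 stayed above the floor. In RNA from whole embryos, fewer cells of a type and less RNA per cell cannot be told apart, and the part of neurons in the exocytic values was not tested.

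Outside these steps, rab32a, a Rab of melanosomes, had signals of 342.6, 396.9 and 169.1. It was 2.35-fold lower with PGRP-SC siRNA than with control siRNA and 2.03-fold lower than in uninjected embryos, and was the only vesicle traffic gene at least 2-fold lower than both. That depended on the processing: its log2 ratio over uninjected embryos, -1.02, became -0.98 with median scaling, -0.99 with quantile normalization and -0.84 with a pseudocount of 50, and under a 60th percentile floor it was -0.56 over control siRNA and -0.35 over uninjected embryos. The gene arl2bp, whose product binds Arl2, had 180.3, 272.8 and 405.9, 2.25-fold above uninjected embryos. Under alternative processing its log2 ratio over uninjected embryos, 1.17, became as small as 0.59. Among the genes called after a traffic protein but outside the coats, Rabs and sorting complexes was arl6ip5a, a membrane protein gene named for binding Arl6. It had 379.0, 554.4 and 1293, 2.33-fold above control siRNA and 3.41-fold above uninjected embryos. This was the widest difference over uninjected embryos among the strongest probe sets. Whether these genes have a part in traffic was not tested. The lipid transfer gene sec14l1 had 383.7, 326.1 and 565.3, and arl6ip4 had 390.6, 282.2 and 424.5. The cilium gene arl6 had 189.7, 129.3 and 172.6, so its lowest signal was with control siRNA.

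Other genes of the same pathways, from a list of 165 of which 99 were on the array, gave a like picture. Over control siRNA 96 had a ratio, with a median of 0.03, and 0 were at least 2-fold higher and 3 lower, beside 2.87% and 2.93% of all genes. Over uninjected embryos 3 were at least 2-fold higher and 6 lower, beside 5.76% and 6.09%. The counts of lower genes are near the array's shares. The 3 lower genes over control siRNA were snap25a, also one of the neuronal markers, at 671.3, 503.0 and 205.0, stxbp2, a partner of syntaxins, at 557.5, 491.9 and 224.7, and nsfa, the ATPase that takes SNARE pairs apart, at 185.8, 204.3 and 86.66, a bound. All 3 are in the list of Rab cycle and fusion genes, which did not go one way: 7 of 12 ratios were below 0, with stxbp3 at -0.41, and 5 above it, among them the SNARE genes snap29 at 0.44 and snap23.1 at 0.06. Of 20 clathrin and adaptor genes, 2 were at least 2-fold lower over uninjected embryos, cltcb, a heavy chain, at 1629, 1361 and 782.9 and the adaptor gene ap1s1 at 1358, 947.0 and 574.8. The adaptor gene ap1b1, at 378.3, 697.5 and 515.7, was highest with control siRNA.

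The list of COPII assembly and ER cargo, with 17 genes measured, also holds the transcription factor genes creb3l2, creb3l3a and xbp1. Its median was 0.17 over control siRNA, with 13 genes above 0 (76.5%, beside 49.7% of all genes). Over uninjected embryos 10 were above 0 (58.8%, beside 51.8%). Highest over control siRNA were mia2, of large cargo export, at 170.7, 152.4 and 258.9, and creb3l2, at 981.5, 889.9 and 1441. The product of creb3l2 acts on COPII genes in zebrafish. Over control siRNA mia2 was 1.70-fold and creb3l2 1.62-fold higher. All 5 measured COPI and Arf cycle genes were above 0 over control siRNA, with a median of 0.34, and 3 of 5 over uninjected embryos. Past 2-fold over uninjected embryos were the golgin gene golga5 at 195.1, 309.4 and 435.6, the tether genes trappc3 at 77.48, 144.0 and 209.3 and trappc4 at 354.3, 146.4 and 158.6, and the exocyst genes exoc7 at 167.7, 185.2 and 353.5 and exoc3 at 705.9, 458.5 and 332.0. Of these, trappc4 and exoc3 were lower and the others higher, trappc3 as a bound. The genes cyth1a, an activator of Arf GTPases, and pik3c3, an endosomal lipid kinase, were highest in uninjected embryos at 1384, 780.5 and 1149 and at 593.0, 342.6 and 375.3, and the Golgi stacking gene gorasp2 was lowest there at 1398, 2204 and 2010. Notochord and cartilage matrix genes, whose products leave cells by this route, went both ways: hapln1a had 1223, 1607 and 522.6, and ntd5 had 863.9, 1602 and 2375.

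Between control siRNA and uninjected embryos the set differed least. Of 116 genes with a ratio, 1 was at least 2-fold higher (0.862%) and 0 were lower, beside 1.11% and 0.774% of all genes. With no replicates no tool could test this count. At 1.5-fold 5 were higher and 5 lower, 4.31% each, beside 6.47% and 5.08%. The higher genes were stx5al, sec61a1b, vps26b, sec23ip and arl2bp, and the lower ones were rab3c, vps41, vps33a, vps4b and rab3ip. The median was -0.05 beside 0.02 for all genes.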

How the data were processed

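Biotin-labelled cRNA from 3 embryo pools was hybridised to 1-colour Affymetrix arrays. The deposited values are linear signal intensities, 1 for each probe set on each array. GCOS 1.4 made them, per the submitters' processing notes, with settings not given in the sources used here. On these values a mean without the outer 2% of each tail was 500.1 on every array, so the overall level had been set equal. Of 15617 probe sets, 115 controls were left out; of the remaining 15502, the platform annotation gave 1 gene for 10795, several for 135 and none for 4572. All 164 probe sets of the vesicle traffic genes have the same symbol in the RefSeq gene table.

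Signals were rescaled to a common 2% trimmed mean and floored at the 40th percentile before log2 ratios were taken. Genes were counted at 2-fold and 1.5-fold. Members, roles and lists were chosen with earlier results of these data known; those on retromer, other complexes and gene copies were grouped after the values were seen. Named genes are all coat genes that fit the rule on names, every gene past 2-fold and the 5 strongest signals. The extremes of the endosomal and remaining genes in each comparison were also named, and a few more to complete a complex. Alternatives were median scaling, quantile normalization, cyclic loess (limma 3.58.1, R 4.3.3), other floors, a pseudocount of 50 and other uses of probe sets. The code behind the ratios and counts was tested on simulated data, which checks the calculation and not the counts (Python 3.11.15, numpy 2.4.6, pandas 2.3.3). With 1 array per group their number limits the precision. The planned promoter motif search was not run, since no sequence was used here.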

Additional observations from a re-analysis of the deposited data

How the results depend on the processing

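The number of genes past 2-fold depended on the floor. Over control siRNA, 3 higher and 1 lower became 6 and 5 with no floor, 5 and 3 under a 20th percentile floor, and 9 and 14 at 1.5-fold, and the 1 lower gene became 0 under a 60th percentile floor. Over uninjected embryos, 6 higher and 5 lower became 11 and 13 with no floor and 13 and 21 at 1.5-fold; the 5 lower became 11 under a 20th percentile floor, 2 under a 60th percentile floor and 3 with median scaling. Between the controls, 1 higher and 0 lower became 4 and 2 with no floor, 2 and 2 under a 20th percentile floor, and 5 and 5 at 1.5-fold; the 1 higher gene, stx5al, became 0 with a pseudocount of 50 and with the mean over probe sets, and 2 with every probe set counted. With the second probe set, which leaves 15 genes (14 between the controls), each count was 0. Without a floor, dim genes keep their ratios. Counts over all genes moved with the floor as well. Over control siRNA, 187 higher and 191 lower became 647 and 679 with no floor and 309 and 322 under a 20th percentile floor. Under a 60th percentile floor they were 117 and 93. Over uninjected embryos, 378 and 400 became 868 and 988, 519 and 614, and 228 and 225 in that order. Between the controls, 72 and 50 became 460 and 456, 138 and 123, and 28 and 23.

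Coat medians over control siRNA went from -0.0007 to 0.17 with every probe set and 0.23 with the second probe set, and over uninjected embryos from -0.15 to 0.026, 0.20 and, with the wide coat list, -0.024. Between the controls they went from 0.03 to -0.075 with the mean over probe sets and -0.17 with the second probe set. Endosomal medians went to -0.21 over control siRNA under a 60th percentile floor and, with the second probe set, to -0.25, -0.16 and 0.15 in the 3 comparisons. The coat minus endosomal difference went from -0.04 to 0.21 under a 60th percentile floor, 0.18 with every probe set and 0.48 with the second probe set over control siRNA, and to 0.05 with the mean over probe sets; from -0.12 to 0.058, 0.36 and, with the wide list, 0.012 over uninjected embryos; and from 0.096 to -0.035 with the mean over probe sets and -0.32 with the second probe set between the controls. The second probe set rests on 3 coat and 6 endosomal genes, and for the other settings the cause was not tested. No scaling turned the sign of a gene with a log2 ratio over 0.1 in the PGRP-SC siRNA comparisons, and the mean over probe sets turned rab5aa over control siRNA and copg2 and rab40c over uninjected embryos. No paired analysis was possible because each group has 1 array.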

Other observations

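Zebrafish keep duplicate copies of many genes, and 9 pairs of a and b copies are among the vesicle traffic genes, of which 5 had a ratio for both copies over control siRNA. Copies of arl6ip5 stood apart most: arl6ip5a had log2 ratios of 1.22 over control siRNA and 1.77 over uninjected embryos, and arl6ip5b had -0.72 and -0.94, with signals of 427.3, 365.7 and 222.0. Copies of sec61a1 went the same way by different amounts, at 0.07 for sec61a1a and 0.73 for sec61a1b over control siRNA. The rab11b copies were both lower, at -0.22 for rab11ba and, as a bound, -0.49 for rab11bb. The rab5a copies were both higher by their strongest probe sets, at 0.20 for rab5aa and 0.46 for rab5ab. A second rab5aa probe set was lower, at -0.21. For rab18a and, as a bound, rab18b the values were 0.23 and 0.22. Copies can share sequence, and whether a probe set also reads the other copy was not tested.

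In some genes the probe sets differed in sign. Of 24 genes with several probe sets, 15 had 2 or more ratios over control siRNA, and in 6 of them the signs differed. The differences between the probe sets of copb2 and of snx12 were among these. The same share over all genes on the array was not counted.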
